A study of Homo sapiens with 8 samples.

Results

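The genes described here are 10 transcriptional targets of the tumour suppressor p53: CDKN1A, MDM2, RRM2B, XPC, DDB2, AEN, FAS, TP53I3, TP53INP1 and ZMAT3. They were picked by symbol from the 13730 genes of the deposited expression table, and each symbol matched 1 gene. RNA sequencing had measured them in cells named LN229-TAZ(4SA), that is, the human glioblastoma line LN229 with a mutant of the Hippo pathway coactivator TAZ that resists inhibitory phosphorylation. The series asks how loss of the redox enzyme TrxR1 (thioredoxin reductase 1, the product of TXNRD1) and lack of glucose act together in killing tumour cells. The 4 groups were TrxR1 knockout (KO) cells in glucose-deprived medium, control cells (labelled EV) in glucose-deprived medium, KO cells in regular medium and EV cells in regular medium, with 2 libraries each and 8 in all. All 4 groups carry TAZ(4SA), and the growth medium named in the labels is DMEM with fetal bovine serum and an antibiotic-antimycotic. The labels do not say whether the KO cells are 1 clone, how long glucose was withheld, or whether the 2 libraries of a group came from separate cultures. Differences between KO and EV cells therefore cannot be told apart from differences between the lines, and every p-value measures the spread between these libraries, which may be technical. The 2 libraries in each group are named a and b, with no pairing across groups. Which columns hold the glucose-deprived medium was read from a header suffix, GlcN, that the labels leave unexplained.

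p53 is a transcription factor that is kept scarce by the ubiquitin ligase MDM2 and becomes stable when DNA damage, oxidative stress, nutrient stress or ribosomal stress weakens that hold. It binds a response element, a pair of short units with a conserved cytosine and guanine core, and switches on genes for cell cycle arrest, DNA repair, cell death and metabolism. MDM2 is itself such a target, which closes a feedback loop. The libraries measure mRNA, and neither the amount nor the activity of the p53 protein was measured.

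The promoters of the genes are shown first, where a match to the p53 response element was found. RefSeq promoter windows on GRCh38.p14, which run from 250 bases before to 50 bases after a transcript start, were listed for 8 of the 10 genes (15 windows). RRM2B and TP53INP1 had no entry. Windows were searched on both strands for the p53 response element consensus, a pair of 10-letter units with a spacer of 0 to 13 bases and at most 2 mismatches in its 20 letters. Such a pair was found in windows of 4 of the genes (5 of 15 windows), and in 2.93% of all 35116 windows. The windows below are printed 5′ to 3′, and capitals mark the pair of units, with any spacer between them in lower case.
DDB2, chr11:47214724-47215023, plus strand, 0 mismatches and a spacer of 1 base, starting at position 5 after the transcript start.
DDB2: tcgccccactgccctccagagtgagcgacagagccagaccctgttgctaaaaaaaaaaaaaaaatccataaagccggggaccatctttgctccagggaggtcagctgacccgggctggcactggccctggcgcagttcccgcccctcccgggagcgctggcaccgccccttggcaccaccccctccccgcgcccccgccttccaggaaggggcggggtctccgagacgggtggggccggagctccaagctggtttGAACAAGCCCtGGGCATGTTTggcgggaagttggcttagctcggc
MDM2, chr12:68808767-68809066, plus strand, 2 mismatches, starting 94 bases before the transcript start.
MDM2: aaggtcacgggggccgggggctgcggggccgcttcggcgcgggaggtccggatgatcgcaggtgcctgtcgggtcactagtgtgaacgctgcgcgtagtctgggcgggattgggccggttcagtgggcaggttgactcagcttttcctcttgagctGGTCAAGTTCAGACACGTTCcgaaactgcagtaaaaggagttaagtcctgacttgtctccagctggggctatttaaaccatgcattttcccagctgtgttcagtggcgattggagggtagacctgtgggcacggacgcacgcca
FAS, chr10:88991181-88991480, plus strand, 2 mismatches, starting 122 bases before the transcript start.
FAS: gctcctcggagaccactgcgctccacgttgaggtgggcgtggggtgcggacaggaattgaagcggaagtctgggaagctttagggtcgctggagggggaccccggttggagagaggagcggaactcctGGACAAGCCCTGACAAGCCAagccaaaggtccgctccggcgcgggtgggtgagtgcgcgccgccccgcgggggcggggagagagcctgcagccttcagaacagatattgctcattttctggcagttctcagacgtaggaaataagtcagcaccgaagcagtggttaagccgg
AEN, chr15:88621090-88621389, plus strand, 2 mismatches, starting 34 bases before the transcript start.
AEN: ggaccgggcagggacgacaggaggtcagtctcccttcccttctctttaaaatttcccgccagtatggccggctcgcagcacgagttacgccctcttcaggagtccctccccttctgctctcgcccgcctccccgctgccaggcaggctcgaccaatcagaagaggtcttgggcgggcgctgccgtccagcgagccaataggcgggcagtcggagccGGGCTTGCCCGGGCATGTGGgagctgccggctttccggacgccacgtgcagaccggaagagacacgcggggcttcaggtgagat
A match describes letters and does not show that p53 binds there. The windows of CDKN1A, XPC, ZMAT3 and TP53I3 held no such pair, which says only that these letters are not in these windows.

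Reads recovered from the table summed to 70083018 to 107229069 per library. TXNRD1, the targeted gene, had 370.4 and 351 CPM (reads scaled to library size, in the unit of the deposited table) in KO cells without glucose, against 509 and 493 CPM in EV cells without glucose (log2 fold change -0.47, adjusted p = 1.97e-05 with limma). In regular medium it had 245 and 249 CPM in KO cells and 263 and 261 CPM in EV cells (-0.083, adjusted p = 0.192), so the gene's total did not pass the test there, and it does not show which exons were read. TXNIP, which glucose induces, had 8.46 and 8.43 CPM in glucose-deprived KO cells and 11.04 and 9.91 CPM in glucose-deprived EV cells, against 77.3 and 81.9 CPM in regular KO cells and 85.5 and 87.1 CPM in regular EV cells. WWTR1, the gene of TAZ, had 309 and 306 CPM in KO and 324 and 342 CPM in EV cells without glucose, and 329 and 318 CPM in KO and 362 and 361 CPM in EV cells in regular medium. All 8 glial and glioma markers listed were in the table, with summed levels of 4803 to 4997 CPM in KO cells without glucose, 5149 to 5193 CPM in EV cells without glucose, 4972 to 5135 CPM in regular KO cells and 4956 to 4994 CPM in regular EV cells. VIM and CD44 made up most of that sum, and single markers moved. In KO against EV cells limma called 5 of 7 without glucose, NES higher (0.18) and S100B (-0.40), FABP7 (-0.32), SOX2 (-0.15) and VIM (-0.12) lower, and 3 of 7 in regular medium, SOX2 (-0.51), S100B (-0.46) and FABP7 (-0.30), all lower. These counts changed with the library left out, as did the number called over all genes. Deprivation lowered SOX2 (-1.35 in KO and -1.72 in EV cells) and NES (-0.97 and -1.03) and raised OLIG2 (1.32 and 1.24). Their part in the results on the 10 genes was not tested. GFAP lay between 0.675 and 1.41 CPM and was too low to be tested. Of 8 markers of other cell types 3 were measured (CD68, SYT1 and RBFOX3). Their summed level was 93.0 to 98.3 CPM in KO and 101.1 to 105.4 CPM in EV cells without glucose, against 40.8 to 41.2 CPM in KO and 40.2 to 43.1 CPM in EV cells in regular medium. CD68 (24.8 to 54.1 CPM) and SYT1 (14.7 to 51.0 CPM) made up that sum, and their part in the results on glucose below was not tested. PTPRC, PECAM1, EPCAM, CDH1 and MOG were not analysed here.

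Glucose deprivation came with higher mRNA of most of the 10 genes in both cell types. In KO cells 7 of the 10 rose (CDKN1A, TP53INP1, RRM2B, ZMAT3, XPC, MDM2 and FAS) and AEN fell, while DDB2 and TP53I3 did not pass the test (limma, adjusted p under 0.05 over 13057 genes tested). In EV cells 8 rose, the same 7 and DDB2, and AEN again fell. Most of the transcriptome moved as well: in KO cells 73.3% of all genes tested were called, 36.5% higher and 36.8% lower, and in EV cells 76.2% were called, 37.5% higher and 38.7% lower. The median log2 fold change of the 10 genes was 0.35 in KO and 0.44 in EV cells, beside -0.0015 and -0.011 over all genes tested. The libraries of the 2 media did not overlap for 8 genes in KO cells (83.6% of all genes) and for 9 in EV cells (90.5%). In bulk RNA, fewer cells of a kind and less RNA per cell cannot be told apart.

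Several of the same genes were lower in TrxR1 KO than in EV cells when glucose was absent. In glucose-deprived medium 5 of the 10 were lower in KO cells (RRM2B, MDM2, DDB2, ZMAT3 and XPC) and CDKN1A was higher. Over all genes tested, 19.6% were called in that comparison, 10.6% lower and 9.04% higher. In regular medium 1 of the 10, RRM2B, was lower in KO cells and none was higher, beside 7.25% of all genes tested called there, 3.38% lower and 3.87% higher. At an unadjusted p under 0.05 with limma the regular medium comparison held 5 of the 10. These were RRM2B, XPC, ZMAT3 and TP53I3, lower in KO cells, and AEN, higher. The share of all genes at that threshold was not counted, so no count at it, here or below, can be set against all genes. Median log2 fold changes over the 10 genes were -0.17 without glucose and -0.085 in regular medium, beside -0.0057 and -0.0033 over all genes tested. KO and EV libraries did not overlap for 9 genes without glucose (61.1% of all genes) and for 8 in regular medium (55.4%).

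**Figure D1:**
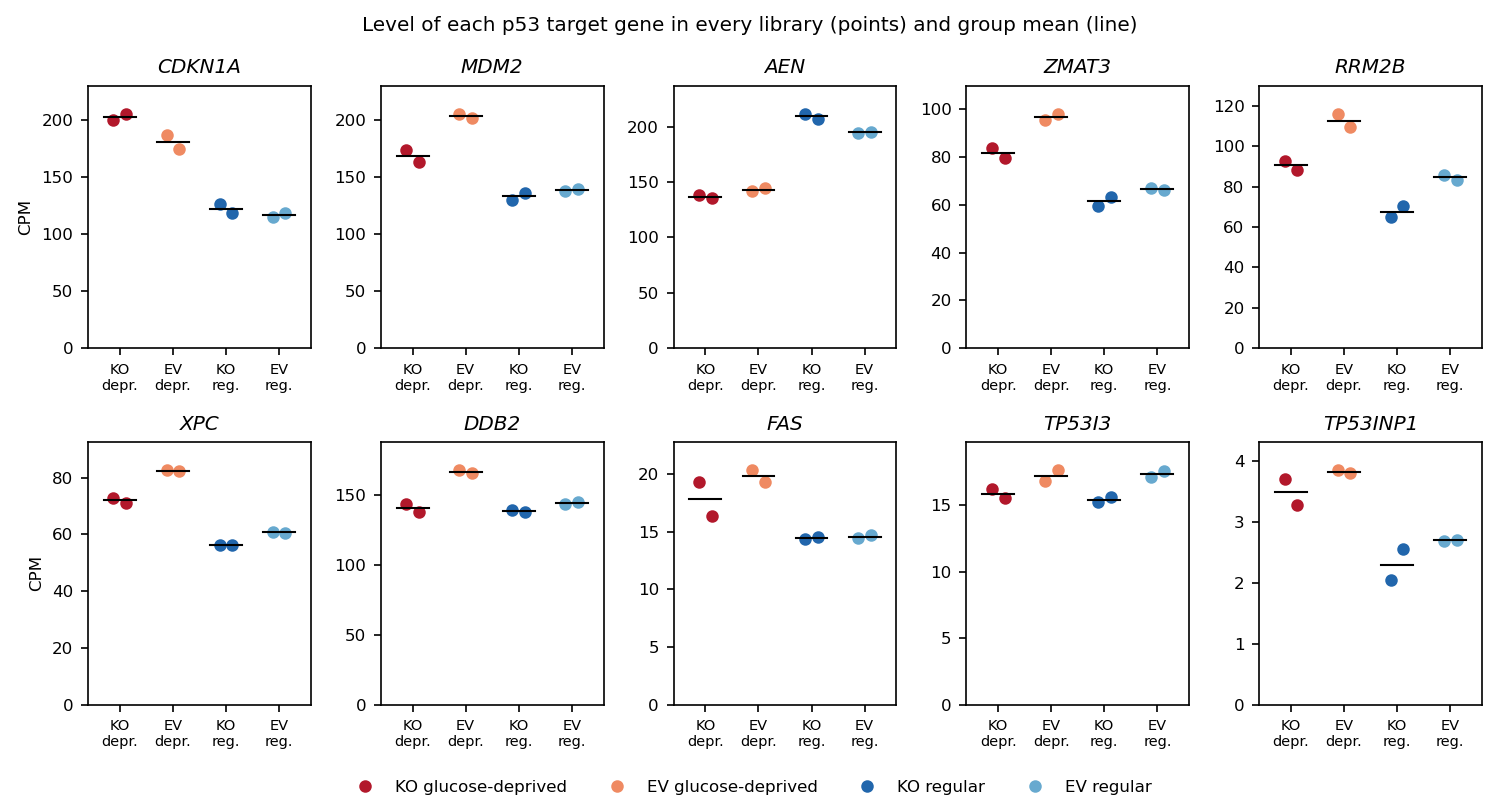
Level of each of the 10 p53 target genes in CPM (linear axes from 0, a scale of its own for each gene). Points are libraries, 2 per group, and lines are group means, in the order KO glucose-deprived, EV glucose-deprived, KO regular and EV regular. Most genes stood highest in EV cells without glucose, CDKN1A in KO cells without glucose, and AEN in regular medium.

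CDKN1A encodes p21, the inhibitor of cyclin-dependent kinases that carries out p53-dependent cell cycle arrest. The gene lies at chr6:36676460-36687339 on the plus strand (GRCh38) and shares 32 exon bases with DINOL on the other strand. It had 199.6 and 205 CPM in KO cells without glucose and 187 and 175 CPM in EV cells without glucose, against 127 and 118 CPM in regular KO cells and 114 and 119 CPM in regular EV cells. All 4 glucose-deprived libraries stood above all 4 regular ones. Deprivation raised CDKN1A 1.65-fold in KO cells (log2 fold change 0.73, SE 0.046, adjusted p = 1.65e-07) and 1.55-fold in EV cells (log2 fold change 0.63, SE 0.046, adjusted p = 4.22e-07). It was the only one of the 10 genes called higher in KO than in EV cells, by 1.119-fold without glucose (log2 fold change 0.16, SE 0.046, adjusted p = 0.0324). That call was narrow: the adjusted p was 0.121 without KO glucose-deprived library b, 0.0538 and 0.25 without EV glucose-deprived library a or b, 0.0574 and 0.0575 without EV regular library a or b, and 0.0941 with no variance trend, with log2 fold changes of 0.11 to 0.21 over all settings. In regular medium the libraries of the 2 cell types overlapped (0.068, adjusted p = 0.397, 95% interval -0.033 to 0.17).

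MDM2, the ubiquitin ligase that holds p53 down, was lower in KO cells without glucose, where CDKN1A was higher. It had 174 and 163 CPM in KO cells without glucose, against 205 and 201 CPM in EV cells without glucose. In regular medium it had 129.7 and 136 CPM in KO cells and 137 and 139 CPM in EV cells. Without glucose both KO libraries lay below both EV libraries, with a log2 fold change of -0.27 (SE 0.040, adjusted p = 0.00146). In regular medium the difference was -0.057 (95% interval -0.15 to 0.032, adjusted p = 0.417). Deprivation raised MDM2 1.26-fold in KO cells (adjusted p = 2.05e-05) and 1.47-fold in EV cells (adjusted p = 4.16e-07). MDM2 lies at chr12:68808176-68850686 on the plus strand, and 1224 of its exon bases are shared with the annotated genes AC025423.2 on the same strand and AC025423.4 on the other, so reads there could belong to any of them.

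Among the genes for DNA repair and nucleotide supply, RRM2B was lower in KO cells in both media. It encodes p53R2, the small subunit of ribonucleotide reductase that supplies deoxynucleotides for repair and for mitochondrial DNA in cells that do not divide. RRM2B had 92.8 and 88.2 CPM in KO cells without glucose against 116 and 109.5 CPM in EV cells without glucose, and 64.8 and 70.3 CPM in regular KO cells against 85.8 and 83.5 CPM in regular EV cells. In both media the KO libraries lay below the EV libraries. The log2 fold changes were -0.32 without glucose (SE 0.049, adjusted p = 0.00198) and -0.33 in regular medium (SE 0.049, adjusted p = 0.00369). The regular medium call ended without EV regular library a (-0.31, adjusted p = 0.0604). Deprivation raised it 1.34-fold in KO cells and 1.33-fold in EV cells (adjusted p = 1.74e-05 and 1.92e-05).

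XPC and DDB2 encode damage sensors of nucleotide excision repair, XPC the general one and DDB2 the one that finds ultraviolet photoproducts in chromatin. XPC had 72.8 and 71.1 CPM in KO cells and 82.5 and 82.4 CPM in EV cells without glucose, and 56.4 and 56.3 CPM in KO cells and 60.7 and 60.6 CPM in EV cells in regular medium. No libraries of its 4 groups overlapped. Without glucose XPC was lower in KO cells (log2 fold change -0.20, SE 0.035, adjusted p = 0.00427), and in regular medium the difference of -0.11 missed the threshold (95% interval -0.18 to -0.030, adjusted p = 0.0924). Deprivation raised it 1.28-fold in KO and 1.36-fold in EV cells. XPC lies at chr3:14145147-14178783 on the minus strand. Its exons share 1366 bases with LSM3 and the annotated genes AC090004.1 and AC093495.1 on the other strand, so some of its reads could belong to them.

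DDB2 had 144 and 138 CPM in KO cells without glucose, against 168 and 166 CPM in EV cells without glucose. In regular medium it had 139 and 138 CPM in KO cells and 144 and 145 CPM in EV cells. Only the EV cells without glucose stood clearly apart, above all other libraries. DDB2 was lower in KO cells without glucose (log2 fold change -0.25, SE 0.034, adjusted p = 0.000959), with -0.063 in regular medium (95% interval -0.14 to 0.011, adjusted p = 0.283). Deprivation raised it 1.16-fold in EV cells (adjusted p = 0.000203), while in KO cells the difference between media was 0.025 (95% interval -0.049 to 0.10, adjusted p = 0.511). The gene lies at chr11:47214465-47239240 on the plus strand, and it is the one whose printed promoter window holds the pair of units without mismatch.

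**Figure D2:**
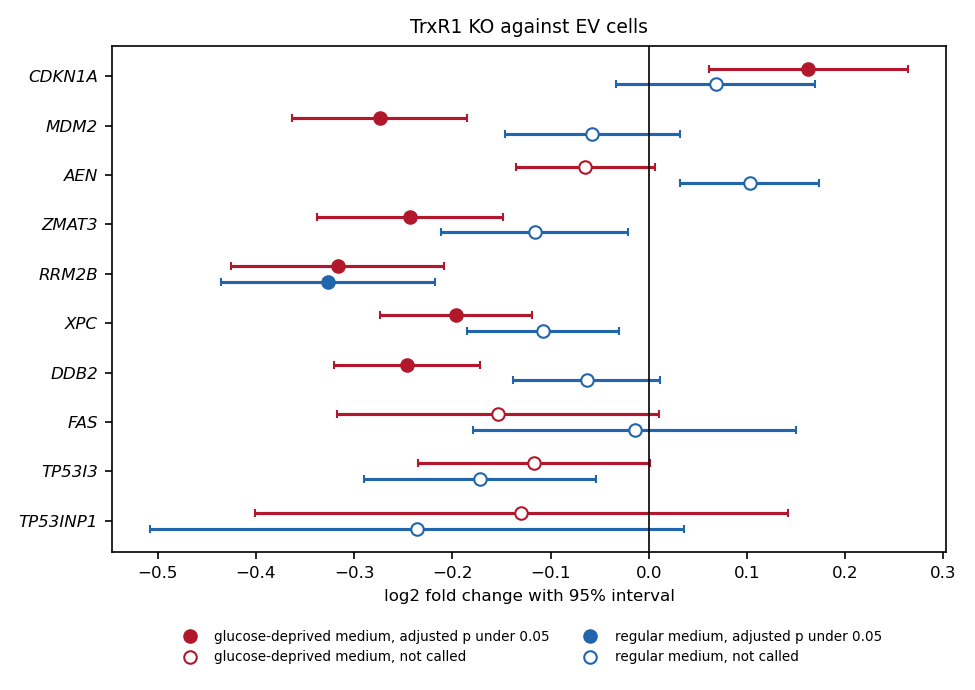
Log2 fold change of KO against EV cells for the 10 genes (x axis), without glucose (upper point of each pair) and in regular medium (lower point), with 95% intervals from limma. Filled points passed an adjusted p of 0.05. Without glucose MDM2, ZMAT3, RRM2B, XPC and DDB2 lie left of 0 and CDKN1A right of it, and in regular medium RRM2B alone is filled.

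Among the genes tied to cell death, AEN was lower without glucose where most of the 10 were higher. It encodes an exonuclease that takes part in p53-dependent apoptosis, and its promoter window above holds a p53 pair as those of MDM2, FAS and DDB2 do. AEN had 138 and 135 CPM in KO cells without glucose and 142 and 144 CPM in EV cells without glucose, against 211 and 207 CPM in regular KO cells and 195 and 195 CPM in regular EV cells. All 4 glucose-deprived libraries stood below all 4 regular ones. The fall was -0.61 in KO cells (SE 0.032, adjusted p = 4.11e-08) and -0.45 in EV cells (SE 0.032, adjusted p = 3.95e-07). The gene lies at chr15:88621296-88632282 on the plus strand. Between cell types AEN differed by -0.065 without glucose (adjusted p = 0.184) and by 0.10 in regular medium (adjusted p = 0.0824), neither called.

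FAS, the death receptor of the extrinsic apoptosis pathway, had 19.4 and 16.4 CPM in KO cells and 20.3 and 19.3 CPM in EV cells without glucose, and 14.3 and 14.5 CPM in KO cells and 14.5 and 14.7 CPM in EV cells in regular medium. Both glucose-deprived groups stood above both regular groups, and KO library b was the lowest of the deprived ones. FAS lies at chr10:88990582-89015785 on the plus strand. Deprivation raised FAS 1.23-fold in KO cells (adjusted p = 0.00356) and 1.36-fold in EV cells (adjusted p = 0.000263). KO and EV libraries overlapped in both media. The difference was -0.15 without glucose (95% interval -0.32 to 0.010, adjusted p = 0.172). Without KO glucose-deprived library a it was -0.27 with an adjusted p of 0.0152, and without library b it was -0.033 with an adjusted p of 0.789, so the value rests on which of the 2 is kept.

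ZMAT3, an RNA-binding zinc finger protein that slows growth downstream of p53, had 83.7 and 79.7 CPM in KO cells and 95.5 and 97.9 CPM in EV cells without glucose. In regular medium it had 59.5 and 63.4 CPM in KO cells and 66.9 and 66.3 CPM in EV cells. Its 4 groups did not overlap and stood in the same order as those of MDM2. ZMAT3, at chr3:179017223-179072279 on the minus strand, was lower in KO cells without glucose (log2 fold change -0.24, SE 0.043, adjusted p = 0.00402), a call that ended without EV glucose-deprived library b (-0.22, adjusted p = 0.0513). In regular medium the difference was -0.12 (95% interval -0.21 to -0.021, adjusted p = 0.131). Deprivation raised it 1.33-fold in KO and 1.45-fold in EV cells.

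TP53INP1, a stress protein that promotes p53 phosphorylation and autophagy, was the lowest of the 10, with 170 to 392 reads per library. It had 3.72 and 3.29 CPM in KO cells and 3.85 and 3.80 CPM in EV cells without glucose, and 2.05 and 2.55 CPM in KO cells and 2.69 and 2.71 CPM in EV cells in regular medium. Deprived libraries lay above regular ones throughout, 1.52-fold in KO cells (adjusted p = 0.00104) and 1.41-fold in EV cells (adjusted p = 0.00338). The intervals for knockout were wide, -0.40 to 0.14 without glucose and -0.51 to 0.035 in regular medium.

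TP53I3, an oxidoreductase (PIG3) linked to reactive oxygen species in p53-dependent apoptosis, was the only one of the 10 that limma called for deprivation in neither cell type. It had 16.2 and 15.5 CPM in KO cells without glucose, 16.8 and 17.6 CPM in EV cells without glucose, 15.2 and 15.6 CPM in regular KO cells and 17.1 and 17.6 CPM in regular EV cells. Every KO library lay below every EV library. The gene lies at chr2:24077433-24085861 on the minus strand and shares 80 exon bases with FAM228B on the other strand. The knockout differences of -0.12 without glucose (95% interval -0.24 to 0.00090, adjusted p = 0.149) and -0.17 in regular medium (95% interval -0.29 to -0.053, adjusted p = 0.0812) missed the threshold. Deprivation moved it by 0.044 in KO cells (95% interval -0.074 to 0.16) and -0.010 in EV cells (95% interval -0.13 to 0.11).

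**Figure D3:**
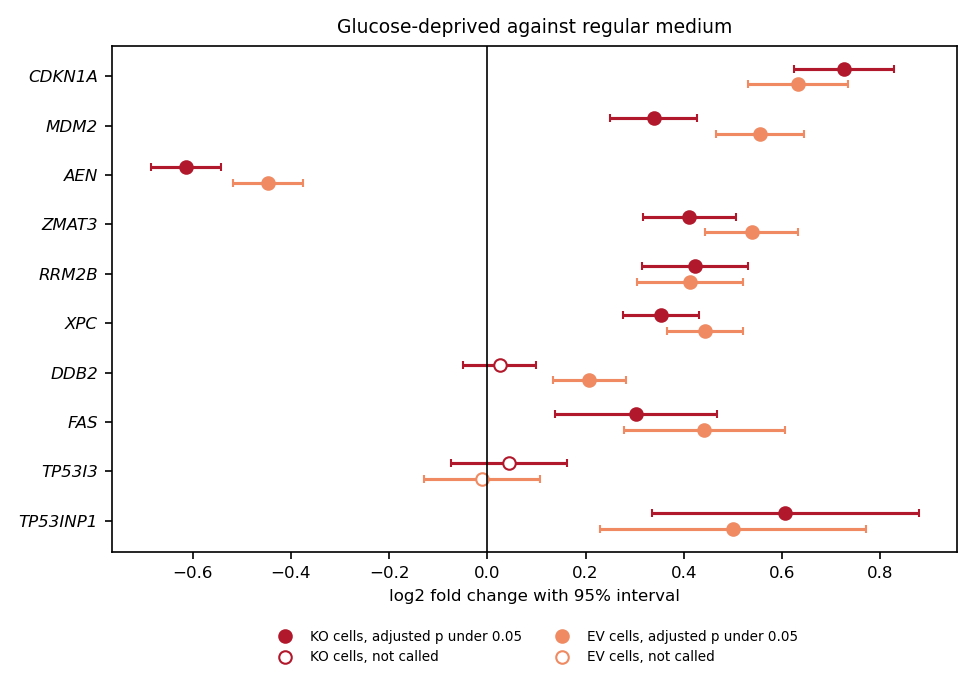
Log2 fold change of glucose-deprived against regular medium for the 10 genes (x axis), in KO cells (upper point of each pair) and EV cells (lower point), with 95% intervals from limma. Filled points passed an adjusted p of 0.05. AEN lies left of 0, TP53I3 is open in both cell types, and DDB2 is filled in EV cells alone.

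The difference between the 2 knockout effects was tested as the interaction of knockout and medium. None of the 10 genes passed (0 of 10; limma called 4.31% of all genes, 2.31% higher and 2.01% lower), and 3 had an unadjusted p under 0.05. These were MDM2 (-0.22, SE 0.057, adjusted p = 0.0599), DDB2 (-0.18, SE 0.048, adjusted p = 0.0592) and AEN (-0.17, SE 0.045, adjusted p = 0.0664). Over all settings the difference ran from -0.26 to -0.17 for MDM2, -0.21 to -0.15 for DDB2 and -0.18 to -0.15 for AEN. MDM2 and AEN passed in 1 setting alone, without KO glucose-deprived library a, where more of all genes passed as well. DDB2 passed there and with median-of-ratios scaling. It is therefore not shown that the knockout acted on these genes more strongly in one medium, although more of them were called without glucose. For RRM2B the difference between the 2 knockout effects was 0.010 (95% interval -0.14 to 0.16).

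Of the 10 genes, 6 shared 1 order of their group means, EV without glucose highest, then KO without glucose, EV in regular medium and KO in regular medium lowest: MDM2, ZMAT3, RRM2B, XPC, FAS and TP53INP1. That order was chosen after the values were seen, and 15.8% of all genes tested had it. In 5 of the 6, libraries of neighbouring groups in that order did not overlap, whereas for FAS the 2 cell types overlapped in each medium. CDKN1A had the cell types the other way round in both media. DDB2 had KO cells without glucose, at 141 ± 4.07 CPM, beside KO cells in regular medium, at 138 ± 1.03 CPM (SD, n = 2 each), and these overlapped.

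Per kilobase of exon, which allows levels of different genes to be set roughly side by side, DDB2, CDKN1A and AEN were the most abundant of the 10. The length used is that of all annotated exons of a gene together. It can exceed that of the transcript expressed, which was not determined, and the value per kb would then be too low. In KO cells without glucose they had 80.6 ± 1.52 (CDKN1A), 75.3 ± 2.17 (DDB2) and 43.9 ± 0.635 (AEN) CPM per kb, against 46.5 ± 1.19, 77.3 ± 0.465 and 62.6 ± 0.152 CPM per kb in EV cells in regular medium (SD, n = 2 each). Mean levels over all 8 libraries were 17.7 CPM per kb for XPC, 17.3 for RRM2B, 12.6 for MDM2, 8.10 for TP53I3, 8.04 for ZMAT3, 6.46 for FAS and 0.543 for TP53INP1. MDM2 has the longest exon length of the 10 (12724 bases) and CDKN1A one of 2509 bases, which is why the order by reads differs from the order per kb.

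MDM2 and CDKN1A were also set against all genes averaging at least 10 CPM (9526) by the root mean square difference of their log2 levels over the 8 libraries, each centred on its own mean. Leaving out the 10 targets, the genes closest to MDM2 were GAS8 (0.029), TTC31 (0.032) and BTN2A2 (0.035). Of the other 9 targets, ZMAT3 was nearest to MDM2 (0.033), followed by XPC (0.047) and FAS (0.072), and AEN was farthest (0.50). Outside the 10 targets, C2orf42 (0.044), ZMIZ1 (0.045) and CPSF4 (0.046) were closest to CDKN1A, and its nearest fellow target, ZMAT3, stood at 0.20. With 8 libraries from 4 groups this likeness is a description of group levels.

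Of 25 listed regulators of p53, 23 were tested. Deprivation raised 9 and lowered 7 in KO cells, and raised 10 and lowered 8 in EV cells. These are 69.6% and 78.3% of the 23, near the 73.3% and 76.2% of all genes tested, with medians of 0.048 and 0.011. Those named here are among the ones with the smallest adjusted p. MDM4, the relative of MDM2 that masks the p53 activation domain, rose (0.63, adjusted p = 9.04e-08 in KO and 0.78, adjusted p = 1.75e-08 in EV cells). ATM, the kinase that signals double-strand breaks to p53, rose by 0.70 in KO and 0.64 in EV cells (adjusted p = 2.08e-07 and 3.56e-07). KAT5, an acetyltransferase of p53, rose by 0.68 in KO and 0.80 in EV cells (adjusted p = 5.79e-07 and 1.51e-07). TRIM28, a corepressor that works with MDM2, was lower without glucose in both (-0.54 and -0.49). Between cell types 1 of the 23 was called without glucose (4.35%, beside 19.6% of all genes), TP73, the p53 relative, which was higher in KO cells: 15.8 ± 1.83 CPM, with 11.6 ± 0.716 CPM in EV cells (SD, n = 2 each; log2 fold change 0.44, SE 0.089, adjusted p = 0.00753). That call ended without EV glucose-deprived library b (log2 fold change 0.38). More of the 23 and more of all genes were called without KO glucose-deprived library a or either KO regular library. In regular medium limma called 0 of the 23, with 3 at an unadjusted p under 0.05.

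A further 85 p53 targets were listed by role, of which 78 were tested. Without glucose 13 of them were higher and 16 lower in KO than in EV cells, and in regular medium 7 were higher and 10 lower. These are 37.2% and 21.8% of the 78, beside 19.6% and 7.25% of all genes tested. Their median log2 fold changes were -0.048 and -0.031, beside -0.0057 and -0.0033. The counts depended on the libraries kept, as did those over all genes. Without EV glucose-deprived library a or b, fewer of the 78 and fewer of all genes were called without glucose. The same held in regular medium without KO regular library a, EV regular library a or EV regular library b. Deprivation raised 34 and lowered 26 of the 78 in KO cells, and raised 32 and lowered 25 in EV cells, that is 76.9% and 73.1%, near the 73.3% and 76.2% of all genes. The medians were 0.076 and 0.019. The order of group means shared by 6 of the 10 genes was found in 13 of these 78, that is 16.7%, near the 15.8% of all genes.

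Among 13 further genes of arrest and feedback, 6 were higher and 3 lower in KO cells without glucose. Fewer of the 13 and fewer of all genes were called without KO library b, EV library a or EV library b of that medium. With all libraries 69.2% of the 13 were called, beside 19.6% of all genes tested. IER5, an immediate early gene, had 141 ± 20.45 CPM in deprived KO cells against 60.4 ± 2.29 CPM in deprived EV cells (log2 fold change 1.21, SE 0.077, adjusted p = 6.03e-06 with limma), the largest difference between KO and EV cells of all the p53 targets listed, in either medium. SERTAD1, which binds cyclin-dependent kinase 4, had 20.2 ± 2.24 CPM in deprived KO cells against 11.5 ± 0.00710 CPM in deprived EV cells (0.81, adjusted p = 9.75e-05 with limma). In regular medium SERTAD1 had 19.0 ± 0.946 CPM in KO and 18.1 ± 0.889 CPM in EV cells, so the deprived EV cells were the group that stood apart. Deprivation raised E2F7, a repressor of the cell cycle, by 1.52 in KO and 1.42 in EV cells, and the growth arrest gene GADD45A by 1.69 and 1.28. CCNG1 rose by 0.81 in KO and 0.83 in EV cells, and BTG1, an antiproliferative gene, by 0.81 and 0.78.

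With KO regular library a or b left out, more of 15 further cell death genes and more of all genes were called without glucose. With all libraries 2 of the 15 were higher and 0 lower in KO cells without glucose, with 6 at an unadjusted p under 0.05 by limma. The 2 were the proapoptotic BCL2 family members BID (0.39, adjusted p = 0.000451) and PMAIP1, also called NOXA (136 ± 2.70 CPM in KO against 113 ± 1.57 CPM in EV cells, 0.26, adjusted p = 0.00275). They are 13.3% of the 15, beside 19.6% of all genes tested. Deprivation raised 4 and lowered 7 in KO cells, and raised 4 and lowered 8 in EV cells. These are 73.3% and 80% of the 15, near the 73.3% and 76.2% of all genes tested. The death receptor gene TNFRSF10B rose by 0.73 in KO and 0.77 in EV cells, and BBC3, also called PUMA, by 1.77 in KO and 1.46 in EV cells. The adaptor gene TRAF4 fell (-0.94 and -0.93).

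Of 11 further genes listed under DNA repair, 3 were lower in KO cells without glucose and 0 higher. The 3 were FBXO22, TRIAP1 and APOBEC3C, and none of them is a repair enzyme. They are 27.3% of the 11, beside 19.6% of all genes tested. By limma 8 of the 11 had an unadjusted p under 0.05, in either direction. Fewer of the 11 and fewer of all genes were called without any 1 of the 4 EV libraries. More of both were called without KO glucose-deprived library a or either KO regular library. FBXO22, a subunit of a ubiquitin ligase, was lower at 70.0 ± 0.432 CPM in KO against 83.5 ± 1.75 CPM in EV cells (-0.25, adjusted p = 0.00168). Deprivation raised 4 and lowered 6 in KO cells, and raised 4 and lowered 4 in EV cells. Fewer of the 11 and fewer of all genes were called in KO cells without KO glucose-deprived library a or any 1 of the EV libraries. With all libraries deprivation was called for 90.9% of the 11 in KO and 72.7% in EV cells, beside 73.3% and 76.2% of all genes. TRIM22, also no repair enzyme, rose by 1.71 in KO and 1.42 in EV cells. PCNA, the sliding clamp of replication, was lower without glucose (-0.34 in KO and -0.62 in EV cells), as was the translesion polymerase gene POLH (-0.57 and -0.38).

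Of 22 further targets in metabolism and autophagy, 3 were higher and 5 lower (36.4%, beside 19.6% of all genes) in KO cells without glucose. Without EV library a or b of that medium, fewer of the 22 and fewer of all genes were called. Without KO library a of that medium, fewer of the 22 but more of all genes were called. SESN2, an inhibitor of mTORC1 signalling, had 294 ± 12.9 CPM in KO and 218 ± 5.82 CPM in EV cells without glucose, against 26.0 ± 0.804 CPM in KO and 24.9 ± 0.785 CPM in EV cells in regular medium. DDIT4, another inhibitor of mTORC1, had 348 ± 27.5 CPM in KO and 277 ± 7.39 CPM in EV cells without glucose, against 61.9 ± 3.21 CPM in KO and 78.5 ± 2.06 CPM in EV cells in regular medium. Both were called higher in KO cells without glucose (0.43, adjusted p = 0.000189 and 0.33, adjusted p = 0.0032). In regular medium DDIT4 was lower in KO cells (-0.34, adjusted p = 0.00555), a call that ended without EV regular library a (adjusted p = 0.078).

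Of 17 further secreted and membrane proteins, 2 were higher and 5 lower in KO cells without glucose, and 4 higher and 2 lower in regular medium. These are 41.2% and 35.3% of the 17, beside 19.6% and 7.25% of all genes tested. Without EV glucose-deprived library a, fewer of the 17 and fewer of all genes were called without glucose. The same held in regular medium without KO library a, EV library a or EV library b of that medium. TGFA, a ligand of the epidermal growth factor receptor, was lower in KO cells without glucose (-0.31, adjusted p = 0.000546) and in regular medium (-0.44, adjusted p = 0.000118). GDF15, a stress cytokine, had 196 ± 45.0 CPM in KO and 146 ± 11.4 CPM in EV cells without glucose, against 5.16 ± 0.598 CPM in KO and 5.84 ± 0.558 CPM in EV cells in regular medium. Its rise in deprivation, 5.23 in KO and 4.64 in EV cells, was the largest of all the p53 targets listed. THBS1, an inhibitor of angiogenesis, fell (-1.20 and -1.05).

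**Figure D4:**
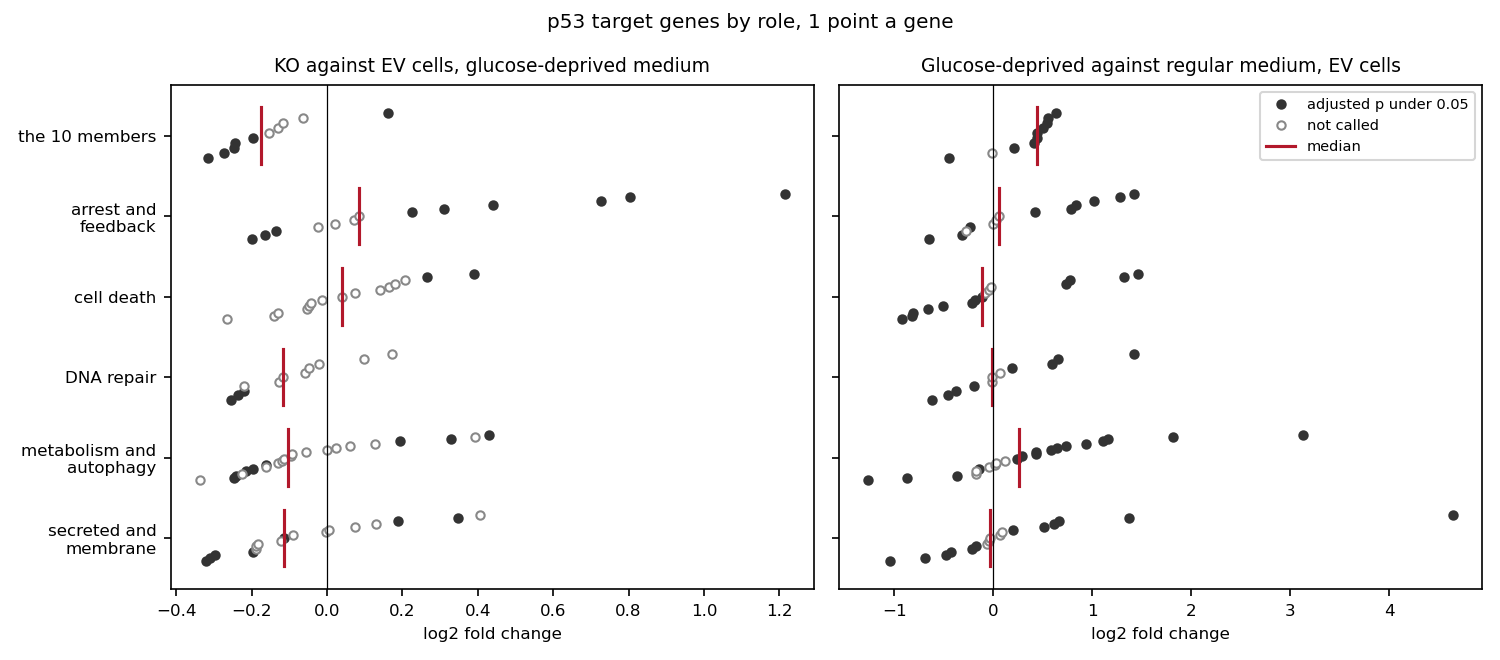
Log2 fold change of the 10 genes and of 78 further p53 targets by role (1 point a gene). The left panel shows KO against EV cells without glucose and the right panel glucose-deprived against regular medium in EV cells. Filled points passed an adjusted p of 0.05 and red lines are medians. The 10 genes lie mostly left of 0 in the left panel and right of it in the right panel, while the further targets spread to both sides of 0 in every role.

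SESN2, DDIT4, GDF15, TNFRSF10B, PMAIP1 and BBC3 are induced by the stress factors ATF4 or CHOP as well as by p53, and stand in a list of 14 ATF4 and CHOP targets. That none of the 10 genes stands in it follows from how the list was chosen. It does not show whether these factors act on them. All 14 genes of that list rose without glucose in both cell types, with median log2 fold changes of 2.43 in KO and 2.37 in EV cells. Of all genes tested, 36.5% were called higher in KO and 37.5% in EV cells. DDIT3, which encodes CHOP, rose by 4.41 in KO and 4.603 in EV cells. In KO against EV cells, 7 of the 14 were higher and 0 lower without glucose, and 5 were higher and 1 lower in regular medium. These are 50% and 42.9% of the 14, beside 19.6% and 7.25% of all genes tested. ATF3 was among the higher ones (0.74, adjusted p = 1.45e-06 with limma without glucose). The part of these factors in the levels of the shared genes was not tested.

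Of 20 cell cycle genes that p53 lowers through p21 and the DREAM repressor complex, 14 were lower and 2 higher in KO than in EV cells without glucose. That is 80% of the 20, beside 19.6% of all genes tested, and the median log2 fold change was -0.26. In regular medium 1 was lower (5%, beside 7.25% of all genes), LMNB1 (-0.16, adjusted p = 0.0263 with limma), and none higher, with a median of 0.012. The LMNB1 call ended without any 1 of the EV libraries or KO regular library a (adjusted p of 0.0635 to 0.297). The mitotic kinase gene PLK1 had 202 ± 2.36 CPM in KO and 265 ± 7.29 CPM in EV cells without glucose, against 409 ± 16.8 CPM in KO and 401 ± 8.76 CPM in EV cells in regular medium (-0.39, adjusted p = 0.000118 without glucose). CCNB1, the mitotic cyclin B1, differed by -0.36 and the kinase gene AURKA by -0.28 in KO against EV cells without glucose. The interaction was called by limma for 8 of the 20 (40%, beside 4.31% of all genes), all negative, PLK1 (-0.42, adjusted p = 0.00239) and AURKA (-0.34, adjusted p = 0.00469) among them. That count fell without any 1 of the EV libraries, and so did the number over all genes. With no variance trend it was 2 of the 20, and over all 13057 genes it was 223 in place of 563. Deprivation lowered 18 of the 20 in KO cells and 15 in EV cells, and raised 1 and 2. In either direction these are 95% and 85% of the 20, beside 73.3% and 76.2% of all genes. CDKN1A was called higher in the same 3 comparisons in which most of these genes were lower (KO against EV without glucose and deprivation in each cell type), and any link was not tested. Of these CDKN1A calls, the one for KO against EV cells without glucose was narrow, with log2 fold changes of 0.11 to 0.21 over all settings.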

How the data were processed

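Per the labels' protocols, total RNA went through SMART-Seq and Nextera XT library preparation, which does not mark strand. HISAT2, edgeR and GRCh38 are named in the submitters' processing notes, without versions. The counting tool and annotation are not given in the sources used here. The authors deposited 1 table of log2 CPM for 13730 genes, 82 without a symbol. Its scale was read from the values: with an offset of 0.023 CPM removed, 100% of values were whole multiples of 1 read within a tolerance of 0.05, and printed CPM values have that offset removed. The columns name a group and no replicate, so library names a and b are arbitrary.

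The deposited log2 values of genes with a mean of at least 0 (13057, with 673 below) went into limma 3.58.1 (R 4.3.3) as 1 model of 4 groups with a variance trend. It had 4 residual and 6.29 prior degrees of freedom. All 10 genes were tested. Two-sided p-values were adjusted with the Benjamini-Hochberg method across all tested genes, within each of 5 contrasts, and genes were called under 0.05. The steps were tested on simulated data. The genes, lists, rules and tests were chosen with earlier results of these data known. Of the lists, up to 4 called genes per contrast could be named, by smallest adjusted p. Exon lengths, overlaps and gene positions come from GENCODE 29, promoters from RefSeq (GRCh38.p14). No scale alternative moved the median of all genes by more than 0.1. Results for 3 genes are not reported here.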

Additional observations from a re-analysis of the deposited data

Results flagged for a closer look

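For AEN, KO and EV cells differed in opposite directions in the 2 media, with all libraries of KO cells below those of EV cells without glucose and all above them in regular medium. The difference of the knockout effects was -0.17 (log2), and its test with limma missed the threshold (adjusted p = 0.0664).

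For TXNRD1 the knockout effect differed between media by -0.39 (adjusted p = 0.00247). Among the further p53 targets, the difference between the 2 knockout effects passed the same test for 9 of 78 genes. It was positive for IER5 (1.24), SERTAD1 (0.73), DDIT4 (0.67), SESN2 (0.37) and APAF1 (0.29), and negative for LIF (-0.57), EPHA2 (-0.35), SLC12A4 (-0.28) and STEAP3 (-0.27). LIF encodes a cytokine and was lower in KO cells without glucose (-0.32, adjusted p = 0.00176). In regular medium LIF was higher in KO cells by 0.25 (adjusted p = 0.015), a call that ended without KO regular library a (0.0644), without EV regular library a (0.088) or b (0.141), and with no variance trend (0.0786). The calls of SESN2 (adjusted p up to 0.08), APAF1 (up to 0.183), STEAP3 (up to 0.145) and SLC12A4 (up to 0.174) ended when single libraries were left out. Those of IER5, SERTAD1, DDIT4, LIF and EPHA2 held in every setting run.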

How the results depend on the processing

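Over 13 settings beside the one reported, 627 of 640 log2 fold changes of the 10 genes kept their side of the threshold, 8 lost a call, 5 gained one and 0 of the called ones reversed. Some values near 0 that were not called changed sign by less than their SE. They include deprivation for DDB2 in KO cells (-0.0041 to 0.055) and for TP53I3 in EV cells (-0.043 to 0.023). With any 1 library left out, the number of the 10 genes called did not change for deprivation in either cell type. It changed for knockout in each medium and for the interaction, and so did the number called over all genes. With median-of-ratios scaling limma called the interaction for 1 of the 10 genes, DDB2 (-0.19, adjusted p = 0.0478), beside 616 of all 13057 genes tested. Of the 78 further targets, the number called with any 1 library left out was 54 to 58 for deprivation in KO cells, 53 to 57 for deprivation in EV cells, 14 to 35 for knockout without glucose (29 with all libraries), 3 to 20 for knockout in regular medium (17 with all) and 5 to 13 for the interaction (9 with all, 5 without EV regular library a). With no variance trend 7 of the 78 were called for knockout in regular medium, in place of 17, and over all genes 433 in place of 946 there and 223 in place of 563 for the interaction. The cause was not tested. Left out libraries leave a group of 1, which is assumed to vary like the others. A fit on the 4 libraries of a comparison alone was added after seeing the data. No paired analysis was possible because the columns carry no replicate numbers. The planned count tests (edgeR and DESeq2) were not run, although whole reads could be recovered. With 2 libraries a group, a difference that was not called is known only to within its 95% interval.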
